A study of Homo sapiens with 9 samples.

Results

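The aminoacyl-tRNA synthetases and the scaffold proteins that bind them were followed in HEK293T cells exposed to a pair of dye ligands. The 38 genes were taken from a named list and matched by current or previous symbol to the 57500 genes of the count tables, and the list uses no threshold on a measured value. They comprised 19 cytosolic enzymes, 16 mitochondrial enzymes (the symbols ending in 2) and 3 scaffold proteins (AIMP1, AIMP2 and EEF1E1). All 38 were found in every library, 17 of them under an older symbol such as AARS for AARS1, and all 38 passed the filter on low counts in each comparison.

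Each synthetase joins one amino acid to its tRNA, the step that sets which residue a codon is read as. Cytosolic and mitochondrial ribosomes use separate tRNA sets, and most amino acids therefore have a pair of nuclear genes, one for each compartment, whereas GARS1 and KARS1 serve both. In the cytosol, EPRS1, IARS1, KARS1, LARS1, MARS1, QARS1 and RARS1 are held in the multi-tRNA synthetase complex by the 3 scaffold proteins, and the other 12 cytosolic enzymes listed here are free of it. Genes of many cytosolic synthetases are known targets of ATF4, the transcription factor of the integrated stress response, which binds a composite C/EBP-ATF response element together with a C/EBP partner.

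HEK293T is an established human embryonic kidney line. Cultures received 10 µM HBC530, 10 µM MsOc3HBC or the vehicle DMSO for 5 h, in 3 replicates each, and poly(A) RNA was sequenced from all 9. HBC530 is a fluorogenic dye that binds the Pepper RNA aptamer without a covalent bond, and MsOc3HBC is a related ligand that carries a mesylate as reactive handle. The study asked whether the reactive ligand also modifies endogenous mRNAs covalently, and reasoned that much alkylation would change transcript levels. It also inspected read coverage over the genes that changed.

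Library totals ranged from 28056929 to 62205366 counts, and the 38 genes together took between 0.614 and 0.687% of them. The spread between replicates exceeded that of sampling, since the chi-square per gene was 5.73 to 65.3 and sampling alone gives about 1. On principal component 1 (18041 genes), HBC530 replicate 3 (36.94) and MsOc3HBC replicate 3 (48.79) stood apart from the other 7 libraries (-20.28 to -4.28). Both were also the shallowest libraries, and values without them are given for the members whose values moved most among those described. The line's markers VIM, KRT8, KRT18, CDH2, NEFM and PAX2 were detected in every library, and ALB, PTPRC, CD3E, HBB and PECAM1 reached at most 6 counts. COL1A1, a fibroblast collagen gene, lay between 19.4 and 35.2 CPM (counts relative to the TMM-scaled library total), and its part in the results was not tested.

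The response element was searched in the RefSeq promoter table (GRCh38.p14), which holds 250 bases before to 50 bases after each start site, as TGATGNAA on both strands. Promoters of 33 of the 38 genes were in the table, and those of LARS1, VARS1, YARS1, AARS2 and VARS2 were not. The motif was found for 7 of 16 cytosolic enzymes (43.8%), 1 of 14 mitochondrial enzymes (7.14%) and none of the 3 scaffold proteins, against 1217 of 27305 genes in the table (4.46%). The 8 windows are shown because the cytosolic genes that hold the motif are compared with the others below. Each is printed 5′ to 3′ on the strand of its gene, with the motif in capitals.
CARS1, chr11:3057407-3057436, minus strand, first motif base 2 before the start: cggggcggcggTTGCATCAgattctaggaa
MARS1, chr12:57488053-57488082, plus strand, 4 before the start: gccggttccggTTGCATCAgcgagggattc
IARS1, chr9:92293692-92293721, minus strand, 13 before the start: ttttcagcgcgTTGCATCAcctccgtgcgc
GARS1, chr7:30594834-30594863, plus strand, 33 before the start: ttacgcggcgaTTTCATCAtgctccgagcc
AARS1, chr16:70289675-70289704, minus strand, 187 before the start: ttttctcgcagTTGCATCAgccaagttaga
TARS1, chr5:33440956-33440985, plus strand, at base 3 of the transcript: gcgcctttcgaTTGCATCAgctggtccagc
NARS1, chr18:57621804-57621833, minus strand, at base 15 of the transcript: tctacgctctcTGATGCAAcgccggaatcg
YARS2, chr12:32756076-32756105, minus strand, 197 before the start: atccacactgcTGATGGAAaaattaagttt

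In CARS1, MARS1, IARS1, AARS1 and TARS1 the same letters, TTGCATCA, stood on the gene's strand, and NARS1 held their reverse complement. GARS1 and YARS2 differed from them at the free base of the motif. A match in these windows describes letters and does not show that a factor binds there.

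In DMSO-treated cells the transcripts of the cytosolic enzymes stood, by their median, at higher levels than those of the mitochondrial enzymes. On the scale of CPM per kb of exonic length, the cytosolic median was 52.4 ± 2.16 (SD of the library medians, n = 3) and the mitochondrial median 13.1 ± 0.0476. The ratio of the 2 medians was 4.01 ± 0.177, and 5.68 ± 0.265 when the length of the canonical transcript was used instead.

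**Figure D1:**
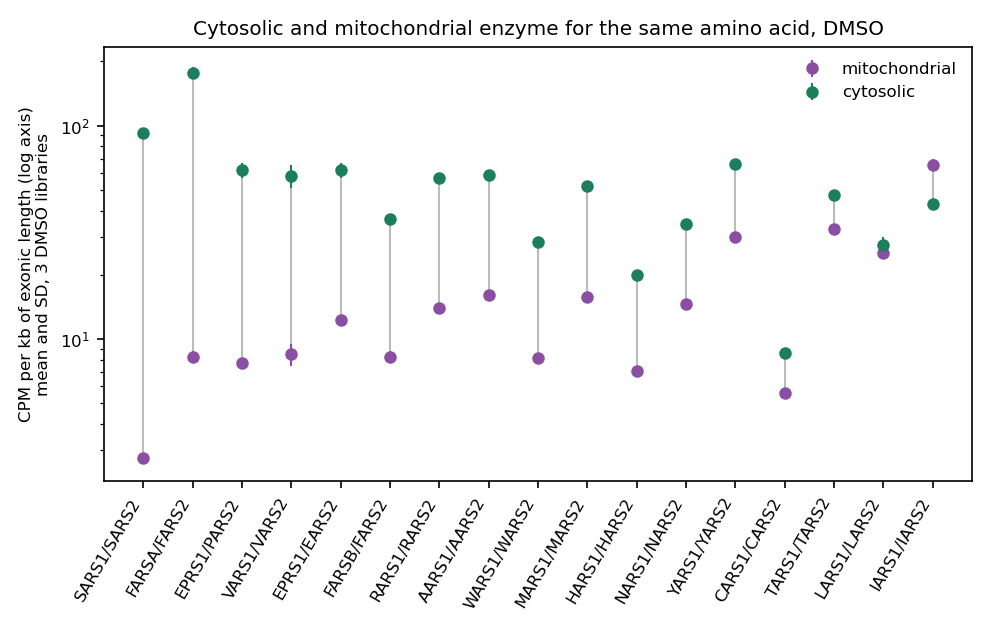
Level of the cytosolic (green) and mitochondrial (purple) enzyme of each amino acid pair in DMSO, as mean and SD of 3 libraries in CPM per kb of exonic length on a log axis, ordered by their ratio. The cytosolic point is the upper one in 16 of 17 pairs, from the serine pair (ratio 33.7) to the leucine pair (1.09), and the lower one for IARS1 and IARS2 (0.656). SARS2 shares 46.2% of its exonic length with another gene on its strand, so its level may be read too low.

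FARSA, the catalytic subunit of cytosolic phenylalanyl-tRNA synthetase, had the highest level of the 38, with 163, 181 and 186 CPM per kb in the DMSO libraries. SARS1, which charges serine, followed at 92.7 ± 1.81 CPM per kb, and YARS1, which charges tyrosine, at 66.3 ± 1.10. Each of the first 2 stood above the next gene in all 3 libraries. From YARS1 the order went on with IARS2, EPRS1, GARS1, KARS1, AARS1, VARS1 and RARS1 down to 56.7 CPM per kb, and neighbours in this stretch overlapped between libraries. IARS2, the mitochondrial isoleucyl enzyme, was the only mitochondrial gene among the first 17, at 65.5 ± 3.98 CPM per kb. Per kb of the canonical transcript, YARS1 (223) stood above SARS1 (186), and IARS2 (77.3) moved from rank 4 to rank 12.

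Among the other cytosolic enzymes, QARS1 (52.1), MARS1 (52.0) and TARS1 (47.5 CPM per kb), which charge glutamine, methionine and threonine, lay close together, with overlapping libraries. IARS1 (42.9) and FARSB (36.6), the second phenylalanyl subunit, came next, followed by NARS1 (34.5), WARS1 (28.5) and LARS1 (27.7 CPM per kb). HARS1 stood lower on this scale, at 19.9, 20.3 and 19.8 CPM per kb in the 3 libraries. Its mean was 86.7 per kb of its canonical transcript, which is 1948 bases long against an exonic length of 8436. CARS1, the cytosolic cysteinyl enzyme, was the lowest cytosolic gene at 8.60 ± 0.0469 CPM per kb of exonic length, and stood at 31.5 per kb of its canonical transcript. The count files give CARS1 an exonic length of 10037 bases against 2737 for the canonical transcript. The places of CARS1 and HARS1 in the order thus depend on the length used. Other places do too, since with the canonical length FARSB moved from rank 16 to 28 and MARS1 from rank 12 to 4.

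Among mitochondrial enzymes, TARS2 (32.6), YARS2 (29.9) and LARS2 (25.4 CPM per kb) followed IARS2. AARS2 (16.1), MARS2 (15.7), NARS2 (14.5), RARS2 (14.0) and EARS2 (12.2 CPM per kb) formed the middle, EARS2 being the enzyme that places glutamate on mitochondrial tRNAs. VARS2 (8.47), FARS2 (8.24), WARS2 (8.15), PARS2 (7.68), HARS2 (7.05), CARS2 (5.57) and SARS2 (2.75 CPM per kb) were the lowest per kb of exonic length. The place of CARS2 depends on the length used. It stood at 31.7 per kb of its canonical transcript, which is 1838 bases long against an exonic length of 10460. Of the scaffold proteins, AIMP2 stood at 38.5 ± 2.75 CPM per kb, AIMP1 at 16.6 ± 0.865 and EEF1E1 at 11.8 ± 1.21. The counting setting for strand is not given in the sources used here, and several of these genes share exonic bases with a neighbour. SARS2 shares 349 bases with MRPS12, which had a mean of 4676 counts against 438 for SARS2, and HARS1 and HARS2 share 592 bases. On its own strand, SARS2 shares 1492 bases, 46.2% of its exonic length, with an unnamed gene that had a mean of 3.67 counts. The paper counted unique gene hits, so reads in such bases may be missing from the level of SARS2, which was not tested.

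Taken by amino acid, the cytosolic gene was above its mitochondrial partner in 16 of 17 pairs per kb of exonic length. The serine pair differed most in level, with SARS1 33.7 ± 0.740 times as high as SARS2. Because SARS2 shares 46.2% of its exonic length with another gene on its strand, its level may be read too low. FARSA was 21.5 ± 0.407 times as high as FARS2, the single-chain mitochondrial phenylalanyl enzyme. The leucine pair was nearly even, with LARS1 at 1.09 ± 0.0569 times LARS2. The isoleucine pair ran the other way in all 3 libraries, with IARS1 at 0.656 ± 0.0374 times IARS2. Per kb of the canonical transcript the isoleucine ratio was 0.918 ± 0.0523 and the cysteine ratio, CARS1 to CARS2, 0.994 ± 0.0231.

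With MsOc3HBC, none of the 38 genes passed an adjusted p of 0.05 against DMSO (edgeR's quasi-likelihood test, Benjamini-Hochberg adjustment over 17514 genes), where 0.154% of all genes did. Without adjustment, 5 of 38 were under 0.05, against 10.9% of all genes, so the share among the synthetases was near the background. By direction, 3 of these 5 were higher (6.12% of all genes) and 2 lower (4.78%). The 3 higher ones were the free cytosolic enzymes CARS1, GARS1 and YARS1, and the 2 lower ones were the mitochondrial enzymes LARS2 and MARS2. No log2 fold change among the 38 went beyond -0.28 or 0.39, whereas the study counted transcripts past 1 on this scale with an adjusted p under 0.5 by DESeq2. In RNA of a whole culture, fewer cells of a kind and less RNA per cell cannot be told apart.

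CARS1, which charges cysteine and lies on chromosome 11 from 3000922 to 3057613 (GRCh38, minus strand), had the smallest p of the 38. Its TMM-scaled level was 85.8, 86.4 and 86.7 CPM with DMSO and 109, 108 and 121 CPM with MsOc3HBC. All 3 treated libraries were above all 3 controls. The fitted fold was 1.31 (log2 0.39, SE 0.0899, adjusted p = 0.176 by edgeR), while DESeq2 gave a log2 fold change of 0.38 with an adjusted p of 0.0238. CARS1 was the only member that DESeq2 called, where it called 0.817% of all genes. Without replicate 3 of MsOc3HBC the log2 fold change was 0.33 (edgeR, adjusted p = 0.0602).

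GARS1, which charges glycine in both compartments, read 257, 247 and 254 CPM with DMSO and 304, 304 and 359 CPM with MsOc3HBC. The groups did not overlap, and the log2 fold change was 0.35 (SE 0.0988, edgeR adjusted p = 0.284). Without replicate 3 of MsOc3HBC it was 0.27. YARS1 read 535, 546 and 553 CPM with DMSO and 637, 635 and 643 CPM with MsOc3HBC. These groups did not overlap either, and the log2 fold change was 0.23 (SE 0.0882, edgeR adjusted p = 0.401). TARS1, the threonyl enzyme, gave 285, 274 and 257 CPM with DMSO and 295, 313 and 314 CPM with MsOc3HBC, again without overlap (log2 0.18, edgeR adjusted p = 0.488).

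VARS1, the valyl enzyme, which associates with the elongation factor that carries charged tRNA, had the lowest fitted value of the 38. It read 304, 379.8 and 378 CPM with DMSO and 310.1, 325 and 236 CPM with MsOc3HBC. DMSO replicate 1 lay within the range of the treated libraries, so the groups overlapped (log2 -0.28, SE 0.135, edgeR adjusted p = 0.474). Without replicate 3 of MsOc3HBC the value was -0.16.

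LARS2, the mitochondrial leucyl enzyme, read 141, 138 and 132 CPM with DMSO and 111, 132 and 101 CPM with MsOc3HBC. Its highest treated library was level with its lowest control (log2 -0.25, edgeR adjusted p = 0.435), and the log2 fold change was -0.17 without replicate 3 of MsOc3HBC. MARS2, the mitochondrial methionyl enzyme, had the smallest p of the mitochondrial genes. It read 47.7, 46.9 and 47.7 CPM with DMSO and 40.0, 42.9 and 40.0 CPM with MsOc3HBC, without overlap (log2 -0.21, SE 0.0875, edgeR adjusted p = 0.430).

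EEF1E1, a scaffold subunit also known as p18, was high in a single treated library. It gave 27.7, 22.8 and 24.3 CPM with DMSO, and 27.1, 26.7 and 38.4 CPM with MsOc3HBC, of which only replicate 3 was above all controls (log2 0.30, SE 0.146, edgeR adjusted p = 0.481). Without that library the log2 fold change was 0.11.

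**Figure D2:**
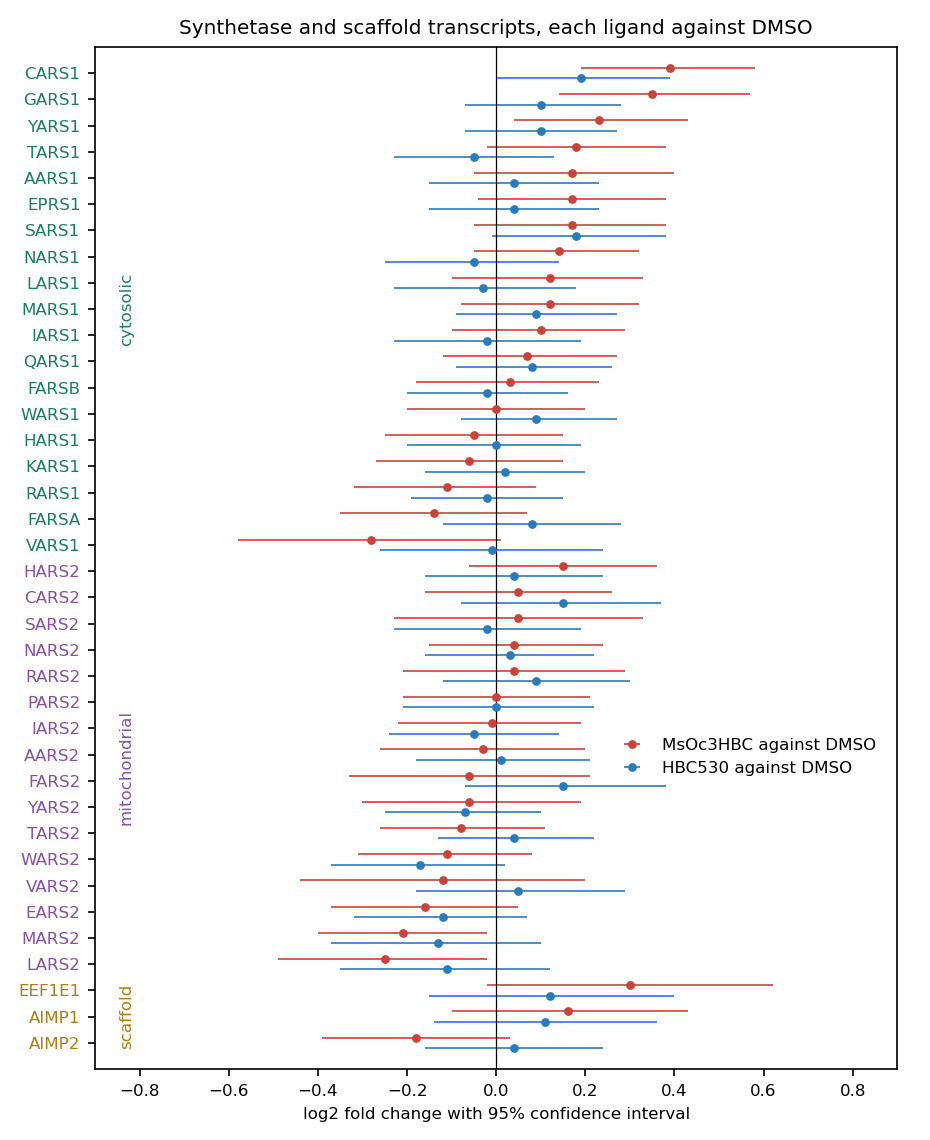
Fitted log2 fold change of each of the 38 genes against DMSO for MsOc3HBC and HBC530, with 95% confidence intervals from edgeR on 3 libraries per group. With MsOc3HBC the values run from -0.28 (VARS1) to 0.39 (CARS1), and with HBC530 from -0.17 (WARS2) to 0.19 (CARS1).

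The remaining members lay closer to 0 with MsOc3HBC. Among complex enzymes, EPRS1 (0.17), MARS1 (0.12), LARS1 (0.12), IARS1 (0.10) and QARS1 (0.07) had positive log2 fold changes and KARS1 (-0.06) and RARS1 (-0.11) negative ones. Among free enzymes the values were 0.17 for both AARS1 and SARS1, 0.14 for NARS1, 0.03 for FARSB, 0.00 for WARS1, -0.05 for HARS1 and -0.14 for FARSA. The other mitochondrial enzymes ranged from -0.16 for EARS2 to 0.15 for HARS2, and AIMP1 (0.16) and AIMP2 (-0.18) stood on either side of 0. AIMP1 was high in replicate 3 (73.7 CPM against 56.5 and 55.4) and stood at 0.02 without it. With all libraries, none of these members had an unadjusted p under 0.05. AARS1 read 313, 321 and 259 CPM with MsOc3HBC and stood at 0.26 without replicate 3 (edgeR adjusted p = 0.0954). In the same fit RARS1 stood at -0.18, YARS2 and FARS2 at -0.19, and SARS1 moved toward 0, to 0.09.

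The fitted 95% intervals lay within ±0.5 on the log2 scale for 34 of the 38 genes and within ±1 for all 38, against 55.9 and 88.3% of all genes tested. The median SE of the 38 genes was 0.0953, against 0.133 over all genes.

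The 2 compartments differed in direction when described as classes with MsOc3HBC. The median log2 fold change of the cytosolic enzymes was 0.116, with 13 of 19 above 0, and that of the mitochondrial enzymes -0.043, with 11 of 16 below 0, beside 0.012 over all genes tested. Under every scaling, filter and model tried, the first stayed positive and the second negative. Complex enzymes (median 0.097) and free cytosolic enzymes (0.152) both lay above the median of all genes. No p is given for these medians, because the genes were not chosen independently of earlier results.

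The same direction was seen in each library. Relative to the DMSO mean, the median log2 deviation of the cytosolic enzymes was -0.009, 0.010 and 0.008 in the DMSO libraries and 0.075, 0.148 and 0.113 in the MsOc3HBC libraries. For the mitochondrial enzymes it was -0.016, 0.009 and 0.015 with DMSO and -0.071, -0.043 and -0.058 with MsOc3HBC. The difference between the classes was therefore 0.147, 0.192 and 0.172 in the MsOc3HBC libraries and between -0.007 and 0.007 in the DMSO libraries. The DMSO libraries set the mean used as reference, which holds their own values close to it. Their range is thus not an independent measure of spread. Replicate 3 of MsOc3HBC, which stood apart on the first principal component, lay between the other 2 on this measure.

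In summed CPM, the cytosolic enzymes went from 5103 ± 69.1 (SD, n = 3) with DMSO to 5409 ± 108 with MsOc3HBC, and the mitochondrial enzymes went from 1106 ± 7.23 to 1053 ± 22.3, without overlap between libraries in either class. The scaffold proteins summed to 151 ± 3.15 CPM with DMSO and 155 ± 20.1 with MsOc3HBC, with replicate 3 at 178 and the other 2 at 144 and 143.

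**Figure D3:**
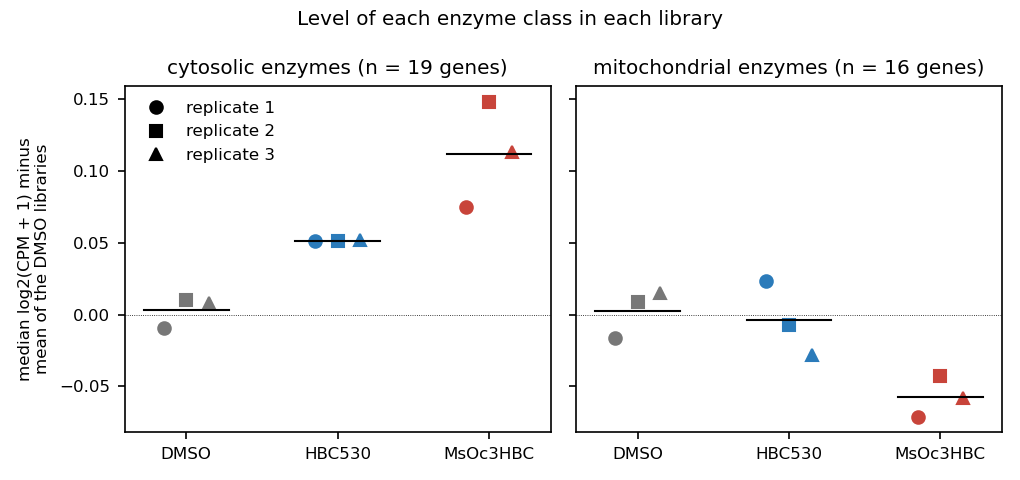
Median over the cytosolic (left, 19 genes) and mitochondrial (right, 16 genes) enzymes of log2(CPM + 1) minus the mean of the DMSO libraries, in each of the 9 libraries; symbols are replicates and bars group means. All 3 MsOc3HBC libraries (0.075 to 0.148) lie above the DMSO libraries for the cytosolic class and below them (-0.071 to -0.043) for the mitochondrial class.

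Gene by gene, the 3 MsOc3HBC libraries were all above the 3 DMSO libraries for 8 of 19 cytosolic enzymes (CARS1, GARS1, IARS1, MARS1, NARS1, SARS1, TARS1 and YARS1) and for HARS2 alone among the 16 mitochondrial ones. Over all genes tested this held for 9.35%. They were all below for EARS2, MARS2, TARS2 and WARS2, which are 4 of 16 mitochondrial enzymes, and for none of the cytosolic ones, against 8.96% of all genes. HARS2 shares 17.4% of its exonic length with HARS1 and 4.46% with ZMAT2, and EARS2 shares 6.46% with UBFD1. Within pairs that charge the same amino acid, the cytosolic log2 fold change was above the mitochondrial one in 13 of 17, with a median difference of 0.12. The leucine pair differed by 0.37, cysteine by 0.34 and methionine by 0.33, and the histidine, valine, arginine and FARSA to FARS2 pairs ran the other way.

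With HBC530, none of the 38 genes passed an adjusted p of 0.05 against DMSO (edgeR, 17684 genes), where 0.0170% of all genes did. None was under an unadjusted 0.05 either, against 5.07% of all genes, and DESeq2 called none of the 38 (0.155% of all genes). The log2 fold changes ran from -0.17 to 0.19, and all 38 intervals lay within ±0.5, against 59.7% of all genes. The comparison uses the same DMSO libraries as that of MsOc3HBC.

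CARS1 again had the smallest p, with 95.8, 91.9 and 108 CPM under HBC530 against 85.8, 86.4 and 86.7 with DMSO. The libraries did not overlap (log2 0.19, SE 0.0882, edgeR adjusted p = 0.751), and the value was 0.13 without replicate 3 of HBC530. SARS1 read 351, 352 and 363 CPM with DMSO and 385, 382 and 445 with HBC530, without overlap (log2 0.18, adjusted p = 0.751 by edgeR), and the value was 0.11 without replicate 3. In MsOc3HBC libraries it read 375, 381 and 439.7 CPM, so that replicate 3 was the high one with both ligands.

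WARS2, the mitochondrial tryptophanyl enzyme, was lower with HBC530 in all 3 libraries, at 29.1, 27.3 and 26.9 CPM against 32.7, 31.0 and 30.4 with DMSO (log2 -0.17, adjusted p = 0.751 by edgeR). It shares 180 exonic bases with WARS2-AS1, an antisense gene whose mean count was 56.4% of its own. FARS2 read 18.1, 19.5 and 20.5 CPM with DMSO and 20.3, 20.5 and 23.9 with HBC530, where only replicate 3 was clear of the controls (log2 0.15, adjusted p = 0.751 by edgeR). Without that library the value was 0.08.

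As classes, the cytosolic enzymes had a median log2 fold change of 0.039 with HBC530 and the mitochondrial enzymes 0.009, beside 0.005 over all genes, and the mitochondrial value turned to -0.025 when trends with GC content and length were removed and to -0.017 without replicate 2 of HBC530. The cytosolic median deviation was 0.051, 0.051 and 0.052 in the 3 HBC530 libraries, above every DMSO library and below every MsOc3HBC library. The difference between the classes was 0.029, 0.058 and 0.080, also between the values of the other groups. All 3 HBC530 libraries were above the 3 DMSO libraries for CARS1, GARS1, QARS1, SARS1, WARS1 and YARS1, 6 of 19 cytosolic enzymes, against 7.17% of all genes. They were below for EARS2, WARS2 and YARS2, against 6.64% of all genes. The cytosolic log2 fold change was above the mitochondrial one in 10 of 17 pairs.

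The direct comparison of MsOc3HBC with HBC530 bears on a pair of ligands that differ by the reactive handle, at the same dose and time. Without pairing, none of the 38 genes passed an adjusted p of 0.05 by edgeR, and none of the 17397 genes tested did (percent called 0). At an unadjusted p under 0.05 there were 4 of 38, against 7.32% of all genes. TARS1 (log2 0.23) and GARS1 (0.25) were higher with MsOc3HBC, against 3.10% of all genes, and AIMP2 (-0.22) and FARSA (-0.22) lower, against 4.22%. Their adjusted p values by edgeR lay between 0.643 and 0.651, and DESeq2 called none of the 22 members for which it gave an adjusted p. The interval of the difference lay within ±0.5 for 34 of 38 genes and within ±1 for all 38.

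Libraries of the 2 ligands with the same replicate number deviated together, with correlations of 0.167, 0.368 and 0.433, so each number was also treated as a block. MsOc3HBC replicate 2 and HBC530 replicate 1, whose numbers differ, correlated as well, at 0.296. Replicate 3 of both ligands also stood apart on the first principal component. These correlations are not independent, because each library was compared with the mean of its own group, which it helps to set. Replicate 3 of one ligand and the other numbers of the other ligand correlated at -0.472 to -0.135. The positive values thus do not by themselves show that the numbers are pairs. Whether cultures with the same number were handled together was not tested. With the block, 8 of 38 genes passed an adjusted p of 0.05 (edgeR), against 11.4% of all genes. The block called 4 higher with MsOc3HBC (4.54% of all genes), all of them free cytosolic enzymes, and 4 lower (6.90%). NARS1, CARS1, VARS1 and FARS2 are named here because the block called them.

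The higher ones were TARS1, GARS1, CARS1 and NARS1, which charge threonine, glycine, cysteine and asparagine. TARS1 read 274, 263 and 250.5 CPM with HBC530 against 295, 313 and 314 with MsOc3HBC, a difference within numbers of 0.11, 0.25 and 0.33 on the log2 scale (blocked adjusted p = 0.0123 by edgeR). GARS1 read 273, 261 and 279 CPM with HBC530 and 304, 304 and 359 with MsOc3HBC, with differences of 0.16, 0.22 and 0.36 (blocked adjusted p = 0.00914 by edgeR). In both genes every MsOc3HBC library was above every HBC530 library.

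CARS1 differed by 0.19, 0.23 and 0.16 within numbers, although its HBC530 replicate 3 (108 CPM) was level with MsOc3HBC replicate 2 (108 CPM) (blocked adjusted p = 0.0197 by edgeR). NARS1 read 143, 142 and 123 CPM with HBC530 and 149.8, 156 and 158 with MsOc3HBC (blocked adjusted p = 0.0469 by edgeR). Its difference was largest at number 3, 0.36 against 0.07 and 0.14, and without replicate 3 of both ligands its adjusted p was 0.258 (edgeR without the block).

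The lower ones were FARSA, VARS1, FARS2 and the scaffold protein AIMP2. FARSA read 437, 439 and 490.3 CPM with HBC530 and 383, 384 and 404 with MsOc3HBC, a difference of -0.19, -0.19 and -0.28 (blocked adjusted p = 0.00953 by edgeR). With DMSO it read 397, 442 and 452 CPM, which overlapped both ligands. VARS1 differed by -0.28, -0.18 and -0.39 within numbers (blocked adjusted p = 0.00501 by edgeR), with 375, 369 and 309.8 CPM under HBC530.

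FARS2 read 17.0, 17.0 and 21.9 CPM with MsOc3HBC, so that replicates 1 and 2 were below all HBC530 libraries and replicate 3 was not. Its differences within numbers were -0.26, -0.27 and -0.13 (blocked adjusted p = 0.0438 by edgeR). AIMP2, which holds the complex together, read 72.8, 68.5 and 76.6 CPM with HBC530 and 60.1, 61.0 and 66.0 with MsOc3HBC, without overlap (blocked adjusted p = 0.0165 by edgeR). AIMP2 shares 532 bases, 28.9% of its exonic length, with EIF2AK1 on the opposite strand, which had more counts than AIMP2.

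Without replicate 3 of both ligands, in a fit without the block, 7 of 38 were called, against 9.16% of all genes, and these were the same genes apart from NARS1. With trends in GC content and length removed and the block kept, 3 of 38 were called, against 1.85% of all genes. These were CARS1, higher with MsOc3HBC, and AIMP2 and RARS1, lower. RARS1, the arginyl enzyme, read 189.8, 190.1 and 193 CPM with HBC530 and 167, 175 and 196 with MsOc3HBC, and its differences within numbers had mixed signs (-0.18, -0.12 and 0.02) before the trends were removed (log2 -0.21, adjusted p = 0.0427 by edgeR after it). The genes no longer called in this fit had smaller log2 differences, with VARS1 at -0.13, FARSA at -0.11, GARS1 at 0.18, TARS1 at 0.16, NARS1 at 0.10 and FARS2 at -0.20. CARS1 and AIMP2 were past the threshold in all 3 of these fits, with log2 differences from 0.20 to 0.24 and from -0.25 to -0.22. These were the only calls of either gene among the 16 alternative settings tried for this comparison. With the trends removed but no block, neither passed (unadjusted p = 0.175 for CARS1 and 0.0101 for AIMP2 by edgeR).

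**Figure D4:**
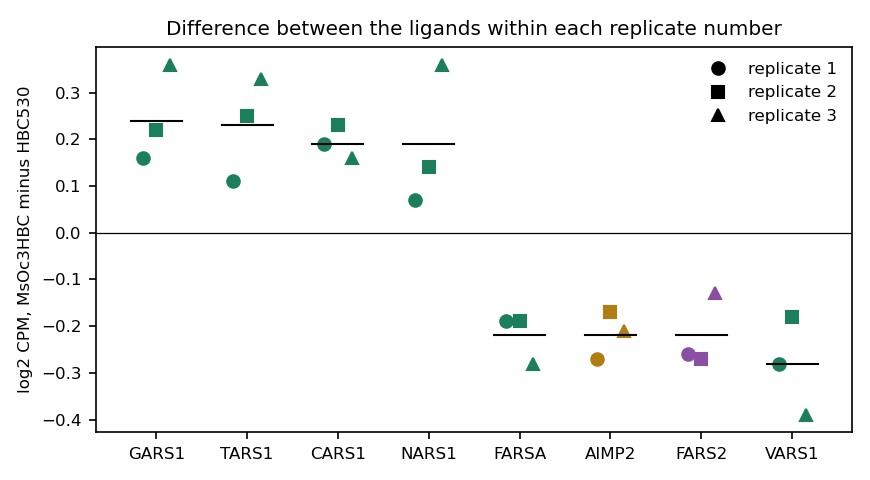
Difference in log2 CPM between MsOc3HBC and HBC530 within each replicate number for the 8 genes called with the block, with bars at the mean of 3; green marks cytosolic, purple mitochondrial and brown scaffold genes. All 3 differences have one sign in each gene, from 0.07 to 0.36 in the 4 higher genes and from -0.39 to -0.13 in the 4 lower ones.

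Over all 38 genes the difference had one sign at all 3 numbers for 24, of which 12 were higher and 12 lower. By class, 9 of 19 cytosolic enzymes were higher with MsOc3HBC at all 3 numbers and 6 lower, and 1 of 16 mitochondrial enzymes was higher and 5 lower, where 22.8 and 22.6% of 18041 genes were. YARS1 differed by 0.13 at each number (blocked adjusted p = 0.0691 by edgeR). The median log2 difference of the cytosolic enzymes was 0.049 and that of the mitochondrial enzymes -0.041, beside 0.017 over all genes, and the cytosolic median was 0.012 without replicate 3 of both ligands.

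The cytosolic enzymes with and without the response element differed in their values with MsOc3HBC. The 7 with the motif (AARS1, CARS1, GARS1, IARS1, MARS1, NARS1 and TARS1) had log2 fold changes against DMSO from 0.10 to 0.39, all above 0, with a median of 0.175. The 9 without it ranged from -0.14 to 0.17, with 4 above 0 and a median of 0.000. With HBC530 the medians were 0.039 with the motif and 0.041 without. Between the ligands they were 0.189, with 7 of 7 above 0, and -0.050, with 2 of 9 above 0.

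The same split was made over all tested genes. The 325 genes with the motif had a median of 0.013 with MsOc3HBC against DMSO, with 52.6% above 0, against 0.001 and 50.3% for 11609 genes without it. With HBC530 the medians were -0.023 and 0.003. Between the ligands the 323 genes with the motif had a median of 0.050, with 57.9% above 0, against 0.010 and 52.2% without it. MARS1 shares 355 exonic bases with DDIT3 on the opposite strand, but the counts of DDIT3 were 1.08% of those of MARS1. YARS2, the one mitochondrial gene with the motif, had a log2 fold change of -0.06 with MsOc3HBC and -0.07 with HBC530. The letters were not found within the windows of SARS1 and EPRS1, which stood at 0.17 with MsOc3HBC.

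**Figure D5:**
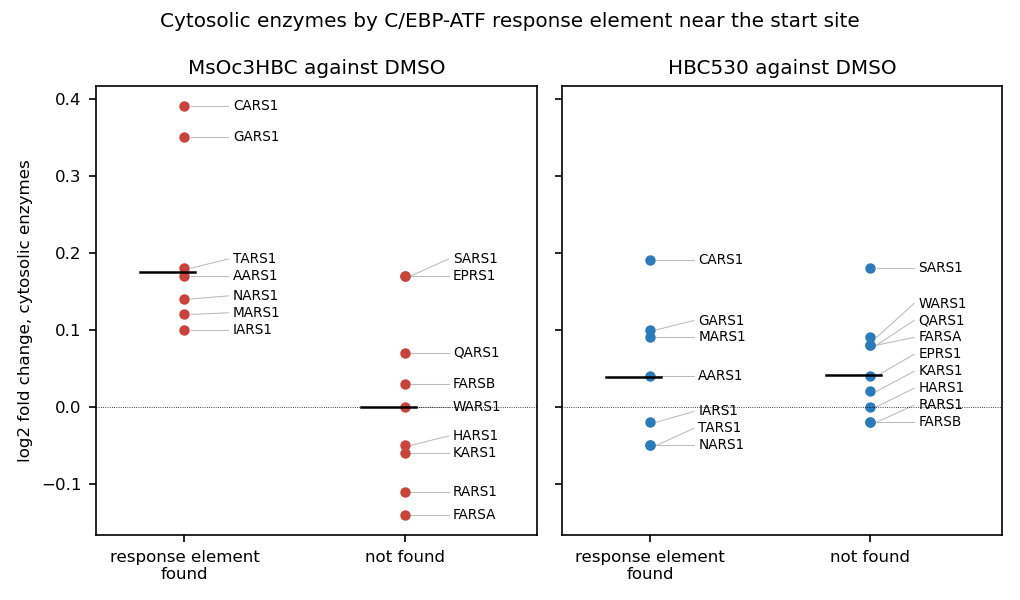
Log2 fold change against DMSO of the 16 cytosolic enzymes with a promoter in the table, split by the presence of the motif, with bars at the medians. With MsOc3HBC the 7 genes with the motif all lie above 0 (median 0.175) and the 9 without it lie on both sides; with HBC530 the medians are 0.039 and 0.041.

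Of 9 genes of tRNA export and delivery to the ribosome, none passed the edgeR test in any comparison, with 2 under an unadjusted 0.05 with MsOc3HBC (10.9% of all genes) and none with HBC530 (5.07%), and medians of 0.015 and 0.004. XPOT, the exportin that carries tRNA out of the nucleus, had a log2 fold change of 0.21 with MsOc3HBC (edgeR adjusted p = 0.448) and -0.08 with HBC530. GFM1, the other of the 2, stood at -0.22 with MsOc3HBC (edgeR adjusted p = 0.438) and at -0.22 with HBC530 (0.751). None of the 78 mitochondrial ribosomal protein genes was called by edgeR, and 3 were under an unadjusted 0.05 with MsOc3HBC (10.9% of all genes) and 2 with HBC530 (5.07%). Their medians were 0.071 with MsOc3HBC, 0.084 with HBC530 and -0.039 between the ligands, beside -0.043, 0.009 and -0.041 for the mitochondrial synthetases.

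Of ATF4 and its classical targets outside the synthetases, some passed the test. Of the others, some lay above the range of the synthetases with MsOc3HBC and some within it. With MsOc3HBC all 14 were above 0 or level with it (TRIB3 at 0.00), with a median of 0.576, and 5 rose past the test by edgeR (0.154% of all genes were called), namely CHAC1, SESN2, DDIT3, ATF3 and SLC7A11. The other 9 did not pass. Of these, ASNS, ATF4, VLDLR (0.52), PSAT1 (0.49) and CEBPB (0.48) lay above CARS1, and PHGDH (0.21), SLC3A2 (0.18), SHMT2 (0.14) and TRIB3 below it. With HBC530 the median was 0.292, with 13 above 0, and CHAC1 and ATF3 passed (0.0170% of all genes were called). ATF4 itself stood at 0.63 with MsOc3HBC (adjusted p = 0.0728 by edgeR) and 0.37 with HBC530 (0.751). ASNS, which makes asparagine and is a standard target of ATF4, stood at 0.69 with MsOc3HBC, against 0.39 for CARS1 as the highest synthetase. This list was chosen with results of these data known.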

How the data were processed

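Poly(A) RNA of HEK293T cells was sequenced with paired-end reads in 9 libraries, 3 each for DMSO, HBC530 and MsOc3HBC. The authors used Trimmomatic 0.36 for trimming, STAR 2.5.2b for alignment (GRCh38) and featureCounts of Subread 1.5.2 for counting, and the deposited files hold raw counts of 57500 genes. The paper states that unique gene hits were counted, but the annotation release and strand setting are not given in the sources used here. Reads in bases shared by overlapping genes may thus be missing from a gene's count or come from its neighbour, and this was not tested. The signal columns of the deposited tables hold counts that the authors divided by DESeq2 size factors. They served only to match names, and the columns of log2 fold changes and p-values in these tables were not used. Of the gene IDs, 56410 matched a current symbol.

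Groups came from the sample labels. Treatments were compared pairwise (3 libraries each) with edgeR 4.0.16 under R 4.3.3 (filterByExpr, TMM scaling, quasi-likelihood F test, Benjamini-Hochberg adjustment over all genes tested). CPM values were scaled by TMM over all 9 libraries. Levels per length used the exonic length in the count files. Alternatives were DESeq2 1.42.0, RLE and upper-quartile scaling, a minimum of 10 counts per library or none, a joint fit of the 9 libraries, the replicate block, removal of GC and length trends, and libraries left out. The canonical transcript length was added after seeing the data.

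Replicate numbers are those of the labels. Deviations of same-numbered libraries from their group means correlated across genes at 0.167, 0.368 and 0.433 between MsOc3HBC and HBC530, all over 0.1, and that comparison is also given with the block. Of the pairs with different numbers, MsOc3HBC replicate 2 and HBC530 replicate 1 correlated at 0.296, and MsOc3HBC replicate 1 and HBC530 replicate 2 at 0.0315. Those of replicate 3 with another number lay between -0.472 and -0.135. The members and lists were chosen with earlier results of these data known. Values in every library are given for the 8 members with the smallest p in MsOc3HBC against DMSO, the 4 with the smallest p in each other comparison, the mitochondrial member with the smallest p and any member called. Sequences are from RefSeq (GRCh38.p14). The p-values measure the spread between these cultures. Those of fits with the block measure the spread left after differences between replicate numbers are removed. A list of other charging and proofreading enzymes is not reported here.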

Additional observations from a re-analysis of the deposited data

How the results depend on the processing

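Neither the cytosolic nor the mitochondrial median changed sign in MsOc3HBC against DMSO or between the ligands. There was no call to lose under an alternative, since the main edgeR fits, on all libraries of each pair of groups and without the block, called no member. The count filter of the edgeR fits did not remove a member, as the lowest count of any of the 38 in a library was 200 (SARS2). DESeq2 called 1 member with MsOc3HBC against DMSO (CARS1) and none in the other comparisons, where between the ligands it gave an adjusted p for 22 of the 38. AIMP2 and FARS2 were among the members without one. Over all genes the calls went from 27 to 132 with DESeq2 and 149 with the replicate block for MsOc3HBC against DMSO, from 3 to 23 and 16 for HBC530 against DMSO, and from 0 to 34 and 1990 between the ligands. In the comparisons with DMSO the numbers are only shared (correlations from -0.111 to 0.041 and from 0.0127 to 0.172), and the block called no member there. Between the ligands the replicate block called 8 members, the block with GC and length trends removed 3, and the fit without replicate 3 of both ligands, which had no block, 7.

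The mitochondrial median with MsOc3HBC against DMSO, -0.043, was -0.020 with upper-quartile scaling and -0.064 with GC and length trends removed, with or without the replicate block, and ranged from -0.067 to -0.003 with 1 library left out. It was -0.003 without replicate 1 of MsOc3HBC. The cytosolic median with MsOc3HBC ranged from 0.081 to 0.115. With HBC530 against DMSO the cytosolic median, 0.039, was 0.052 with upper-quartile scaling, 0.029 with no filter, and 0.062 and 0.060 with GC and length trends removed, without and with the block; it ranged from 0.027 to 0.062 with 1 library left out. The mitochondrial median, 0.009, turned to -0.025 and -0.030 in the same 2 fits and ranged from -0.017 to 0.021. Between the ligands the medians were 0.012 (cytosolic) and -0.067 (mitochondrial) without replicate 3 of both ligands, and ranged from 0.037 to 0.100 and from -0.057 to -0.003 with 1 library left out. The ratio of median levels was 5.68 with the canonical transcript length. The cause of these shifts was not tested.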
